A study of Danio rerio with 12 samples.

Results

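Genes of smooth muscle and of the bulbus arteriosus were followed in RNA-seq libraries of the zebrafish ventricular apex. They were chosen by symbol, as genes of the contractile apparatus (*acta2*, *tagln*, *cnn1b*, *cnn2*, *myh11a*, *mylka*, *smtnl1*, and *actn1*) and of the elastic matrix (*fbln5* and *elnb*). Of these 10 symbols, 9 were listed among the 38049 genes of the deposited files, and all 9 were among the 19014 genes tested. The symbol *cnn1b* is not analysed here. A gene listed as *cnn1* was not used in its place, because neither the files nor the gene names at hand link the symbols.

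The bulbus arteriosus is the elastic outflow chamber of the teleost heart, built of smooth muscle and elastic matrix, and it smooths the pressure pulse that leaves the ventricle. Smooth muscle cells contract through smooth muscle actin and myosin, and myosin light chain kinase switches that myosin on by phosphorylating its light chain. In the ventricle, genes of this program mark the mural cells of vessels, and several are also used by fibroblasts and other motile cells, so none of them marks the bulbus alone.

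Each library pooled the ventricular apices of 6 hearts from heat-shocked adult fish, and each of the 6 groups had 2 libraries. WT denotes non-transgenic wild-type fish, TG wild-type fish carrying *Tg(hsp70l:nkx2.5-EGFP)*, and MT *nkx2.5*-/- fish (allele vu179) that carry the same transgene. Groups ending in 0 were uninjured, and groups ending in 7 were collected 7 days after amputation of the apex (dpa). All fish, including the non-transgenic controls, received a heat shock at 37 °C as embryos of 21 somites, when the hsp70l promoter drives Nkx2.5 fused to EGFP throughout the embryo, so MT fish are rescued mutants. The paper reports that amputation also activates the transgene for a short time, without heat shock. Expression was back at the uninjured level before 7 dpa, and the paper considers an effect on the injury response unlikely. Any effect on the TG7 and MT7 libraries was not tested here. The fish were adults of 3 to 18 months. The comparisons ask how these genes differ between the genotypes before injury, how they respond to amputation, and whether that response differs with genotype.

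Total counts per library ranged from 14234818 to 24544150. Levels are CPM, which are counts scaled to the size of the library after TMM normalization, and where a pair of levels is given for a group, replicate 1 comes first. A gene was called when its log2 fold change exceeded 0.5 in either direction and its Benjamini-Hochberg adjusted p (FDR) from edgeR's quasi-likelihood test was below 0.05 over all genes tested. The myocardial label was met in every library, since *myl7*, the cardiac myosin regulatory light chain, ranged from 8316 to 38001 CPM. The *nkx2.5* count was 0.56 ± 0.20 log2 units (SE) higher in MT0 than in WT0 (FDR = 0.0617), and it does not check the genotype, because it can hold reads of the mutant allele and of the transgene. Smooth muscle transcripts were present in every library, with *acta2* between 125 and 455 CPM and *myh11a* between 23.1 and 113 CPM. A change in a pooled piece of tissue can come from fewer or more cells of a type or from less or more RNA per cell, and these cannot be told apart here.

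In uninjured hearts, most of these genes were higher in MT0 than in either wild-type group. Against WT0, 8 of 9 were called higher and none lower (13.6% of all genes tested were called higher and 11.6% lower), with a median log2 fold change of 1.93 beside 0.02 over all genes. Against TG0, 6 of 9 were called higher and none lower, where 11.4% of all genes were called higher and 9.42% lower, and the median was 1.40 beside 0.03. The MT0 libraries stood above every WT0 and TG0 library for 7 genes, *acta2*, *tagln*, *cnn2*, *myh11a*, *mylka*, *actn1*, and *fbln5*, a pattern found in 17.6% of all genes. Both comparisons share the MT0 libraries. The gene listed as *cnn1*, not counted among the 9, was called higher against TG0 (1.89 ± 0.50, FDR = 0.0227). Against WT0 it was not called (0.56 ± 0.48, FDR = 0.407). After amputation *cnn1* was not called, at -0.39 ± 0.48 in WT (FDR = 0.585), 0.70 ± 0.49 in TG (FDR = 0.400), and -1.11 ± 0.48 in MT (FDR = 0.152).

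*acta2*, which encodes smooth muscle actin, measured 180.3 and 206 CPM in WT0, 125 and 260.5 CPM in TG0, and 455 and 368 CPM in MT0. Both MT0 libraries exceeded all uninjured controls, and the log2 fold change was 1.09 ± 0.31 (SE) against WT0 (FDR = 0.0261) and 1.09 ± 0.31 against TG0 (FDR = 0.0293). The call against WT0 was lost without any 1 of the WT0 or MT0 libraries (highest FDR = 0.141), and that against TG0 without TG0 replicate 1 (0.66, FDR = 0.154), without either MT0 library, without WT7 replicate 2 or either TG7 library, or with only the libraries compared (FDR = 0.0689). Without TG0 replicate 2 the value against TG0 was 1.72. Reads of actins are hard to assign because the paralogs are nearly identical in coding sequence, so the *acta2* counts are less certain than the others.

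*tagln*, the actin-binding protein transgelin, measured 35.4 and 46.0 CPM in WT0, 41.6 and 76.3 CPM in TG0, and 134 and 722 CPM in MT0. Both MT0 libraries were higher than all controls, but the second was far above the first. The log2 fold change was 3.40 ± 0.65 against WT0 (FDR = 0.00499) and 2.86 ± 0.64 against TG0 (FDR = 0.0108). Without MT0 replicate 2, these values were 1.74 and 1.19, and only the first was still called (FDR = 0.0780 for the second). The calls were also lost without WT0 replicate 1 (FDR = 0.0515 against WT0) and without TG0 replicate 1 (FDR = 0.104 against TG0), and the call against WT0 with only the libraries compared (FDR = 0.0660).

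*myh11a*, the smooth muscle myosin heavy chain, measured 37.6 and 39.9 CPM in WT0, 23.1 and 35.7 CPM in TG0, and 56.3 and 113 CPM in MT0. The groups did not overlap, with MT0 higher by 1.13 ± 0.29 log2 units than WT0 (FDR = 0.0194) and by 1.52 ± 0.30 than TG0 (FDR = 0.00584). Without MT0 replicate 2, the difference from WT0 was 0.55 (FDR = 0.154). That call was also lost without WT0 replicate 1 (FDR = 0.105) or replicate 2 (FDR = 0.0555) and with only the libraries compared (FDR = 0.111), and the call against TG0 without TG0 replicate 1 (FDR = 0.0638).

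*mylka*, a myosin light chain kinase, measured 9.49 and 11.9 CPM in WT0, 9.39 and 25.9 CPM in TG0, and 26.6 and 54.4 CPM in MT0. It was called against WT0 (1.93 ± 0.44, FDR = 0.0104) and missed the threshold against TG0 (1.19 ± 0.42, FDR = 0.0662), where the higher TG0 library nearly reached the lower MT0 library. The call against WT0 was lost without WT0 replicate 1 (FDR = 0.0813) or MT0 replicate 2 (1.33, FDR = 0.0870), and *mylka* was called against TG0 without TG0 replicate 2 (2.12, FDR = 0.0155), without MT0 replicate 1 (FDR = 0.0354), with DESeq2 (FDR = 0.0236), without the filter on low counts (FDR = 0.0463), and with a replicate block (FDR = 0.0349). Without MT0 replicate 2 the value against TG0 was 0.59 (FDR = 0.461), and with only the libraries compared it was 1.18 (FDR = 0.142).

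*cnn2*, a calponin that binds actin, and *actn1*, an alpha-actinin that cross-links actin at adhesions, stayed called against both controls whichever library was left out. *cnn2* measured 51.3 and 62.4 CPM in WT0, 61.2 and 55.7 CPM in TG0, and 145 and 163 CPM in MT0. *actn1* measured 60.3 and 47.4 CPM in WT0, 28.4 and 31.9 CPM in TG0, and 135 and 188 CPM in MT0. For both genes the MT0 libraries stood clear of all controls, by a log2 fold change against WT0 of 1.44 ± 0.13 for *cnn2* (FDR = 1.48e-04) and of 1.58 ± 0.19 for *actn1* (FDR = 4.47e-04). Against TG0, the values were 1.40 ± 0.13 for *cnn2* (FDR = 1.69e-04) and 2.42 ± 0.19 for *actn1* (FDR = 9.02e-05).

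*smtnl1*, a smoothelin-like protein that in mouse modulates the relaxation of smooth muscle, was high in both lines that carry the transgene. It measured 9.90 and 11.6 CPM in WT0, 103 and 163 CPM in TG0, and 125 and 150.0 CPM in MT0. The MT0 and TG0 libraries overlapped and both lay above WT0. The log2 fold change was 3.63 ± 0.25 in TG0 against WT0 (FDR = 9.06e-05) and 3.68 ± 0.25 in MT0 against WT0 (FDR = 4.17e-05), while MT0 differed from TG0 by 0.05 (95% interval -0.43 to 0.53).

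The elastic matrix genes differed from each other. *fbln5*, which encodes the fibulin that guides elastic fibre assembly, measured 3.59 and 4.47 CPM in WT0, 4.88 and 8.45 CPM in TG0, and 12.5 and 23.4 CPM in MT0. It was called against WT0 (2.16 ± 0.35, FDR = 0.00221) and against TG0 (1.43 ± 0.33, FDR = 0.0131), and without MT0 replicate 2 the value against TG0 was 0.91 (FDR = 0.118). The call against TG0 was also lost without TG0 replicate 1 (1.09, FDR = 0.108).

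*elnb*, an elastin expressed in the zebrafish bulbus, measured 1.29 and 1.27 CPM in WT0, 0.488 and 17.3 CPM in TG0, and 7.41 and 8.39 CPM in MT0. The raw counts behind the TG0 values were 8 and 344. Both MT0 libraries lay above WT0 and between the TG0 libraries, and the log2 fold change against WT0 was 2.62 ± 1.1 and was not called (FDR = 0.101). Without TG0 replicate 2, whose spread enters the error of every group, it was 2.64 (FDR = 0.00372), and it was likewise called without TG0 replicate 1 (FDR = 0.00376) and with only the libraries compared (FDR = 0.0227). Against TG0, *elnb* differed by -0.19 ± 0.90 (FDR = 0.903), by 4.01 without TG0 replicate 2, and by -1.13 without TG0 replicate 1.

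**Figure D1:**
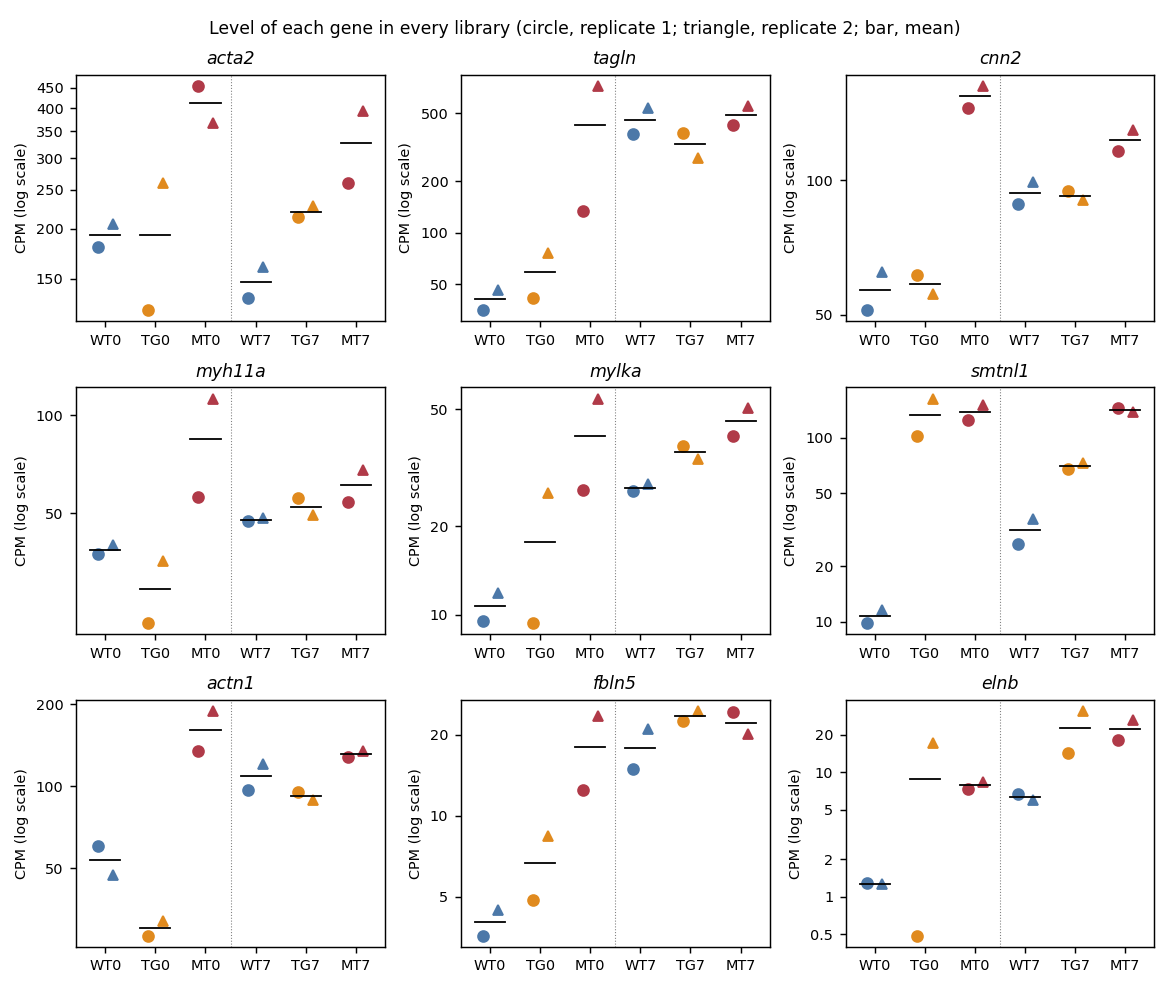
Level in CPM (log scale) of each of the 9 genes in the 12 libraries, by group, with a circle for replicate 1, a triangle for replicate 2, and a bar for the mean. In uninjured hearts *cnn2* and *actn1* stood apart in MT0, *tagln* reached 722 CPM in MT0 replicate 2, and *elnb* was 0.488 and 17.3 CPM in the TG0 libraries.

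Between the uninjured wild-type lines, 1 gene was called higher in TG0 than in WT0 (*smtnl1*, above) and 1 lower, beside 11.1% and 11.3% of all genes. The lower gene was *actn1* (-0.84 ± 0.19, FDR = 0.0124). The others were not called, and *acta2* differed by 0.00 (95% interval -0.68 to 0.68). The call of *actn1* was lost without WT0 replicate 1 (FDR = 0.0968), without either TG0 replicate, or with only the libraries compared (FDR = 0.0600). *elnb* was not called at 2.81 ± 1.1 (FDR = 0.0872), and its value was 3.76 without TG0 replicate 1 (FDR = 0.00647) and -1.37 without TG0 replicate 2 (FDR = 0.210).

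**Figure D2:**
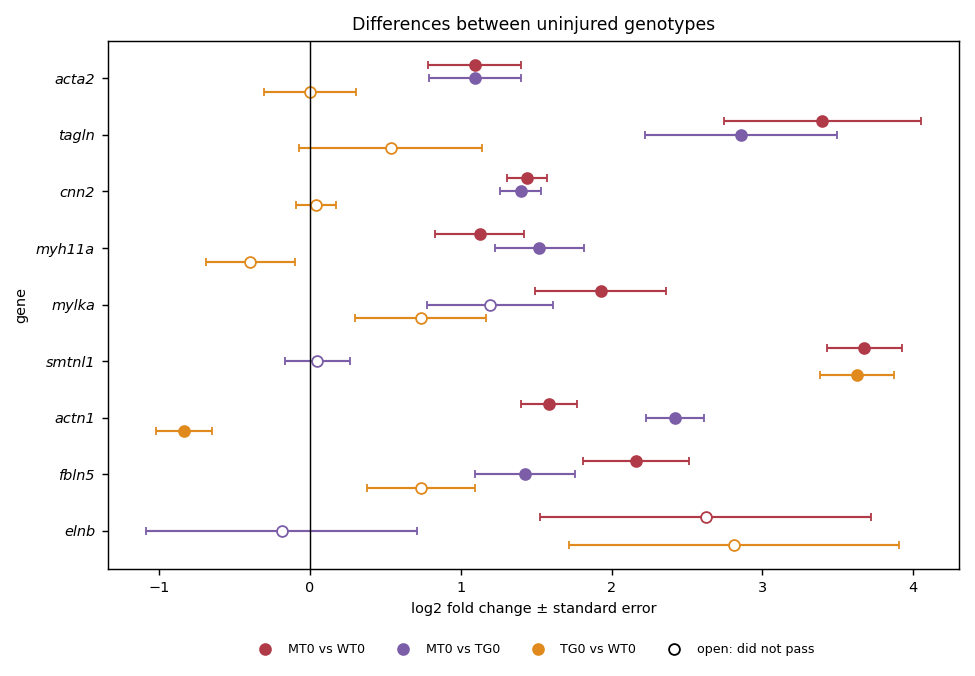
Log2 fold change of each gene between the uninjured groups, with bars of 1 SE, for MT0 against WT0, MT0 against TG0, and TG0 against WT0, and open points where a gene was not called. *smtnl1* lay near 3.6 in both comparisons with WT0 and at 0.05 between MT0 and TG0, while *cnn2* and *actn1* were higher in MT0 than in both controls.

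The excess in MT0 came with higher levels of other genes. Of 15 fibroblast genes tested, 13 were called higher in MT0 than in WT0 and none lower. In this comparison, 13.6% of all genes were called higher and 11.6% lower. The summed level of the fibroblast genes was 4229 to 6319 CPM in MT0 beside 1129 to 1247 in WT0 and 2063 to 2155 in TG0. Of 5 epicardial genes, 4 were called higher against WT0. Of 14 mural cell and pericyte genes, 5 were called higher and 2 lower, and their summed levels were 1403 to 1420.0 CPM in MT0, 1364 to 1478 in TG0, and 1090.4 to 1335 in WT0. Against TG0, 11 of the 15 fibroblast, 4 of the 5 epicardial, and 2 of the 14 mural genes were called higher, and 1 mural gene lower. There, 11.4% of all genes were called higher and 9.42% lower. TG0 against WT0 called 8 of the 15 fibroblast genes higher, beside 11.1% of all genes. The lists share genes, with *tcf21* among the fibroblast and epicardial genes and *tbx18* among the epicardial and mural genes. Of 7 ventricular cardiomyocyte genes, 1 was called higher in MT0 than in WT0 (*vmhc*, 0.92 ± 0.25, FDR = 0.0216) and 2 lower. Against TG0, none was called higher and 1 lower. The summed level of the 7 genes was 64552 to 87764 CPM in MT0 and 105906 to 126688 in WT0. The part of these other cell types in the excess was not tested.

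Beyond the named genes, 33 of 41 further genes listed for smooth muscle contraction were tested. The list was not restricted to genes specific to smooth muscle. It holds *tpm4a*, at 4735 to 11651 CPM over all libraries, and *desma*, at 1100 to 3037 CPM. The part of cardiomyocytes in these levels was not tested. Against WT0, 14 of the 33 were called higher and 3 lower in MT0, beside 13.6% and 11.6% of all genes. The median log2 fold change was 0.86, and 11 had negative values, down to -2.23. Against TG0, 12 were called higher and 5 lower, beside 11.4% and 9.42% of all genes. The summed level of the 36 genes found was 16775 to 20567 CPM in MT0, 20779 to 23100 in TG0, and 19258 to 21053 in WT0. *tpm2*, a tropomyosin, measured 51.5 to 58.1 CPM in WT0, 50.8 to 60.3 in TG0, and 655 to 707 in MT0, a log2 fold change of 3.64 ± 0.16 against WT0 (FDR = 5.86e-06). *myl6*, a myosin light chain shared by smooth and non-muscle cells, rose by 1.18 ± 0.13 (FDR = 3.56e-04), and *csrp1a*, a LIM-domain protein of smooth muscle, by 1.47 ± 0.18 (FDR = 4.67e-04). *myh11b*, the paralog of *myh11a*, stayed between 0.146 and 3.13 CPM in every library.

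The serum response factor and myocardin pathway activates smooth muscle contractile genes in vertebrates. Of the genes listed for it, 9 were tested, and they gave 4 lower and no higher calls in MT0 against WT0 (11.6% of all genes were called lower). The list includes *foxo4*, which opposes myocardin in mouse, so the number of lower calls gives no direction for the pathway. *foxo4* was at -0.94 ± 0.14 (FDR = 0.00133). *mkl1a*, a myocardin-related coactivator found at 1.70 to 6.24 CPM over all libraries, was at -1.51 ± 0.28 (FDR = 0.00388). *myocd* itself lay between 34.1 and 68.2 CPM over all libraries. TG0 against WT0 also gave 4 lower and no higher calls (11.3% of all genes lower), and MT0 against TG0 gave 1 higher and 1 lower (11.4% and 9.42% of all genes). Of 23 elastic fibre genes tested besides *fbln5* and *elnb*, 11 were called higher and 2 lower in MT0 against WT0, beside 13.6% and 11.6% of all genes. The lysyl oxidases *loxl2a* (2.93 ± 0.35, FDR = 4.67e-04) and *loxl2b* (2.05 ± 0.26, FDR = 6.53e-04), which cross-link elastin and collagen, were higher, and *efemp2a*, a fibulin, was lower (-2.09 ± 0.28, FDR = 8.14e-04).

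After amputation, some of the 9 genes were called in both wild-type lines and none in MT. In WT7 against WT0, 6 of 9 were called higher and none lower (13.2% of all genes were called higher and 11.0% lower), with a median log2 fold change of 1.35. In TG7 against TG0, 4 were called higher and 1 lower, beside 6.69% and 2.68% of all genes, with a median of 1.01. In MT7 against MT0, none of the 9 was called, beside 5.56% called higher and 6.48% lower, and the median was 0.04. There, 1 gene had an unadjusted p below 0.05 in edgeR (*cnn2*, -0.33 ± 0.13). DESeq2 called 0 of the 9, beside 15.6% of all genes in either direction.

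*tagln* measured 379 and 532 CPM in WT7, 384 and 272 CPM in TG7, and 424 and 553 CPM in MT7. All 6 injured libraries exceeded every WT0 and TG0 library, whereas the MT0 libraries lay on either side of them. The log2 fold change was 3.48 ± 0.66 in WT (FDR = 0.00537) and 2.47 ± 0.63 in TG (FDR = 0.0360). In MT it was 0.19 ± 0.59 (FDR = 0.868), 1.85 without MT0 replicate 2, and -0.57 without MT0 replicate 1. The WT call was lost without WT0 replicate 1 (FDR = 0.0583) and the TG call without any 1 of the TG0, TG7, or WT7 libraries.

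*fbln5* measured 14.9 and 20.9 CPM in WT7, 22.6 and 24.4 CPM in TG7, and 24.3 and 20.1 CPM in MT7. The injured libraries lay between 14.9 and 24.4 CPM from different starting levels, with log2 fold changes of 2.15 ± 0.35 in WT (FDR = 0.00280), 1.81 ± 0.33 in TG (FDR = 0.00975), and 0.30 ± 0.31 in MT (FDR = 0.563). The TG call was lost without TG0 replicate 1 (FDR = 0.0902) or either TG7 library.

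*actn1* measured 96.7 and 121 CPM in WT7, 95.2 and 88.9 CPM in TG7, and 128 and 135 CPM in MT7. It rose by 1.02 ± 0.19 log2 units in WT (FDR = 0.00467) and by 1.61 ± 0.19 in TG (FDR = 9.72e-04). *cnn2* measured 88.3 and 98.9 CPM in WT7, 94.4 and 90.2 CPM in TG7, and 116 and 129.6 CPM in MT7. It rose by 0.72 ± 0.13 in WT (FDR = 0.00498) and by 0.66 ± 0.13 in TG (FDR = 0.0152). Without WT7 replicate 2 the WT calls were lost for *actn1* (FDR = 0.0503) and *cnn2* (FDR = 0.0535), and the TG call of *cnn2* was lost without any 1 of the TG0 or TG7 libraries.

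*mylka* measured 26.4 and 27.8 CPM in WT7, 37.4 and 33.9 CPM in TG7, and 40.6 and 50.4 CPM in MT7. It was called in WT (1.35 ± 0.43, FDR = 0.0451) and not in TG (1.01 ± 0.42, FDR = 0.150) or MT (0.17 ± 0.41, FDR = 0.826). The WT call was lost without any 1 of 8 of the 12 libraries. The TG value was 1.93 without TG0 replicate 2 and 0.46 without TG0 replicate 1. *smtnl1* measured 26.6 and 36.4 CPM in WT7, 67.7 and 73.3 CPM in TG7, and 144 and 138 CPM in MT7. It moved in opposite directions in the wild-type lines, by 1.55 ± 0.24 in WT (FDR = 0.00204) and by -0.91 ± 0.22 in TG (FDR = 0.0295), and without TG0 replicate 2 the TG value was -0.54 (FDR = 0.194). That call was also lost without either TG7 library.

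The smooth muscle actin and myosin heavy chain genes, *acta2* and *myh11a*, were not called after injury in any genotype by edgeR in all 12 libraries. *acta2* measured 134 and 161 CPM in WT7, 214 and 227 CPM in TG7, and 260.2 and 394 CPM in MT7, with log2 fold changes of -0.39 ± 0.30 in WT (FDR = 0.369), 0.19 ± 0.30 in TG (FDR = 0.734), and -0.33 ± 0.30 in MT (FDR = 0.504). *myh11a* measured 47.3 and 48.4 CPM in WT7, 55.6 and 49.4 CPM in TG7, and 54.2 and 68.1 CPM in MT7. Its log2 fold changes were 0.30 ± 0.29 in WT (FDR = 0.469), 0.83 ± 0.29 in TG (FDR = 0.0999), and -0.47 ± 0.29 in MT (FDR = 0.306), and DESeq2 called the TG value (FDR = 0.0472), as did the fit without either MT0 replicate and that of only the TG libraries (FDR = 0.0299).

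*elnb* measured 6.70 and 6.01 CPM in WT7, 14.3 and 30.8 CPM in TG7, and 18.1 and 26.3 CPM in MT7. Both injured libraries lay above both uninjured ones in WT and in MT, and the TG groups overlapped through TG0 replicate 2. The log2 fold changes were 2.31 ± 1.1 in WT (FDR = 0.148), 1.33 ± 0.88 in TG (FDR = 0.371), and 1.49 ± 0.89 in MT (FDR = 0.291). Without TG0 replicate 2 the values were 2.32 in WT, 5.52 in TG, where the TG0 library kept held 8 counts, and 1.48 in MT. Without TG0 replicate 1 they were 2.32 in WT, 0.39 in TG, and 1.48 in MT. With only the libraries compared, WT (FDR = 0.0204) and MT (FDR = 0.0472) were called and TG was not.

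Averaged over the genotypes, with 6 injured and 6 uninjured libraries, 5 genes were called higher and none lower, beside 15.7% and 9.18% of all genes. They were *tagln* (2.05 ± 0.36, FDR = 0.00188), *elnb* (1.71 ± 0.56, FDR = 0.0357), *fbln5* (1.42 ± 0.19, FDR = 4.93e-04), *mylka* (0.84 ± 0.24, FDR = 0.0211), and *actn1* (0.78 ± 0.11, FDR = 5.45e-04). *cnn2* passed the adjusted p (FDR = 0.00582) at a log2 fold change of 0.35, under the fold threshold. The call of *elnb* was lost when any library other than those of TG0 was left out, and its value was 3.11 without TG0 replicate 2. The call of *mylka* was lost without any 1 of 5 libraries.

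**Figure D3:**
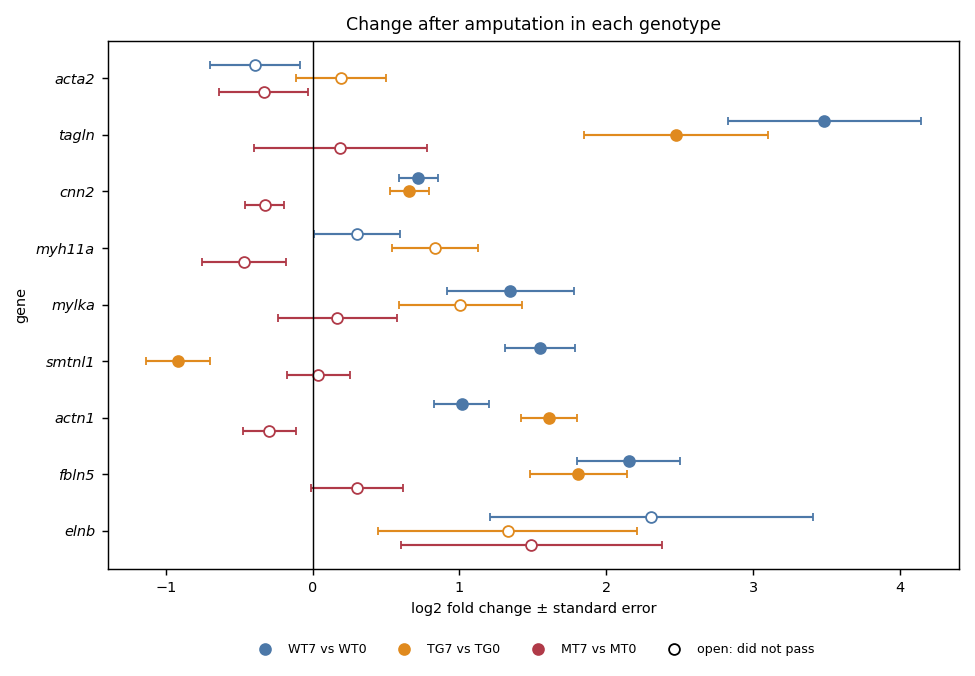
Log2 fold change of each gene 7 days after amputation, with bars of 1 SE, in WT, TG, and MT hearts, and open points where a gene was not called. *tagln*, *fbln5*, *actn1*, and *cnn2* were called higher in WT and TG, no gene was called in MT, and *smtnl1* was called higher in WT and lower in TG.

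The test of a difference between injury responses called 3 of 9 genes in MT against WT and 2 in MT against TG, all with the smaller value in MT. In MT against WT, 0.463% of all genes were called with the larger value in MT and 1.51% with the smaller, and in MT against TG 0.347% and 1.06%. *actn1* differed by -1.31 ± 0.26 from WT (FDR = 0.0375) and by -1.90 ± 0.26 from TG (FDR = 0.0149). *cnn2* differed by -1.05 ± 0.19 from WT (FDR = 0.0260) and by -0.99 ± 0.19 from TG (FDR = 0.0359). *smtnl1* differed by -1.51 ± 0.32 from WT (FDR = 0.0459; 0.0519 with RLE size factors) and by 0.95 ± 0.31 from TG, which was not called (FDR = 0.163). For *tagln* the difference from WT was -3.30 ± 0.86 and for *fbln5* it was -1.85 ± 0.47, and neither was called (FDR = 0.0832 for *tagln* and 0.0763 for *fbln5*). Both were called with DESeq2 (FDR = 0.0164 for *tagln* and 0.0121 for *fbln5*), without the filter on low counts, and without MT0 replicate 1. Without MT0 replicate 2 the values were -1.64 for *tagln* (FDR = 0.146) and -1.34 for *fbln5* (FDR = 0.166).

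Because the responses are differences from the uninjured level, the higher MT0 levels of *actn1* and *cnn2* enter these values, and both MT7 libraries lay above every WT7 and TG7 library for these genes. DESeq2 called 5 genes in MT against WT, where it called 6.25% of all genes in either direction, and the fit of only the libraries compared called 0, where it called 0.436%. No gene was called in the fits without WT0 replicate 1, MT0 replicate 2, MT7 replicate 1, or any WT7 or TG7 library. In MT against TG, no gene was called without any 1 of the TG0 or TG7 libraries or without MT7 replicate 1. TG against WT gave 1 lower call, *smtnl1* (-2.46 ± 0.32, FDR = 0.00806), beside 1.64% of all genes called higher and 2.01% lower, and the call was lost without either TG7 library.

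In injured hearts, few of these genes were called between genotypes. MT7 against WT7 gave 2 higher calls and none lower, beside 4.60% and 5.62% of all genes. *acta2* was higher by 1.15 ± 0.31 (FDR = 0.0409) and *smtnl1* by 2.17 ± 0.23 (FDR = 5.75e-04), and the call of *acta2* was lost without any 1 of 9 of the 12 libraries. MT7 against TG7 called *smtnl1* alone (1.001 ± 0.22, FDR = 0.0416), beside 0.742% of all genes called higher and 2.04% lower, and TG7 against WT7 called *smtnl1* alone (1.16 ± 0.22, FDR = 0.0387), beside 0.847% and 0.289%. The first call was lost without any 1 of the libraries other than those of TG0, and the second without any 1 other than those of TG0 and MT7. The MT7 libraries exceeded every WT7 and TG7 library for 5 genes, *acta2*, *cnn2*, *mylka*, *smtnl1*, and *actn1*, a pattern of 16.1% of all genes.

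The wider lists gave the setting of the injury response. Of the 33 further contractile genes, 8 were called higher and 4 lower in WT7 against WT0, 7 and 1 in TG7 against TG0, and 2 and 8 in MT7 against MT0. Over all genes, 13.2% were called higher and 11.0% lower in WT, 6.69% and 2.68% in TG, and 5.56% and 6.48% in MT. Averaged over genotypes, *tpm4b*, a tropomyosin, rose by 2.01 ± 0.23 (FDR = 1.93e-04), *cald1b*, the actin-binding caldesmon, by 0.98 ± 0.11 (FDR = 2.19e-04), and *flna*, a filamin that cross-links actin, by 0.53 ± 0.07 (FDR = 5.73e-04). Of the 23 elastic fibre genes, 12 were called higher and none lower in WT, 8 and none in TG, and 4 and 1 in MT, beside the same shares of all genes. *mfap2*, a microfibril glycoprotein, rose by 3.76 ± 0.19 on average (FDR = 2.03e-06). Fibroblast genes rose in all genotypes, with 14 of 15 called higher in WT, 14 in TG, and 13 in MT, and their summed level reached 11949 to 14250 CPM in the injured libraries. Their median log2 fold change was 3.45 in WT, 2.67 in TG, and 1.23 in MT. The test of a difference between responses called 10 of the 15 smaller in MT against WT and 8 in MT against TG. None was called larger in either. Over all genes, 1.51% and 1.06% were called smaller. A smaller response in MT was therefore not particular to the followed genes. In the averaged effect, 5 of 5 epicardial, 2 of 2 red blood cell, and 4 of 6 leukocyte genes were called higher. Of 7 ventricular cardiomyocyte genes, 5 were called lower and 1 higher. Of 14 mural cell and pericyte genes, 2 were called higher and 3 lower. Over all genes, 15.7% were called higher and 9.18% lower in that effect. The summed mural level was 1074 to 1121 CPM in WT7, 1140 to 1202 in TG7, and 685 to 839 in MT7. Before injury it was 1090.4 to 1335 in WT0, 1364 to 1478 in TG0, and 1403 to 1420.0 in MT0. The part of these cells in the rise of *tagln* and *fbln5* was not tested.

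The apex is cut by hand, and the spread between replicates was therefore examined gene by gene. In TG0 and in MT0, replicate 2 was the higher library for 8 of 9 genes, the exceptions being *cnn2* in TG0 and *acta2* in MT0. Replicate 2 was also the higher library for 8 genes in WT7, 7 in WT0, 7 in MT7, and 4 in TG7. The median difference, as log2 CPM of replicate 1 minus replicate 2, was -0.78 in TG0 and -0.48 in MT0, whereas the median over all genes was 0.00 in both. The median size of the difference over all genes was 0.24 in TG0 and 0.31 in MT0.

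Of the 9 genes, 7 were higher in replicate 2 in both groups. The widest difference was that of *elnb* in TG0 (-4.89) and that of *tagln* in MT0 (-2.42), and *mylka* came next in both (-1.45 in TG0 and -1.03 in MT0). In TG0, 8 of 14 mural cell and pericyte genes, 6 of 15 fibroblast genes, 2 of 5 epicardial genes, and 6 of 7 ventricular cardiomyocyte genes were higher in replicate 2, and the summed mural level was 1478 CPM in replicate 1 and 1364 in replicate 2. In MT0, 10 of 14 mural, 15 of 15 fibroblast, 5 of 5 epicardial, and 0 of 7 ventricular cardiomyocyte genes were higher in replicate 2, and the summed mural level was 1420.0 CPM in replicate 1 and 1403 in replicate 2. Of the remaining lists in TG0, 5 of 6 leukocyte, 2 of 2 atrial, and 2 of 2 red blood cell genes were higher in replicate 2. So were 2 of 6 endothelial and 6 of 12 skeletal muscle genes. In MT0 it was 6 of 6 leukocyte, 2 of 2 atrial, and 0 of 2 red blood cell genes, with 3 of 6 endothelial and 4 of 12 skeletal muscle genes. Skeletal muscle genes, some at 0 CPM in some libraries, had a median difference of 3.42 in TG7 and -3.89 in MT7. The amount of bulbus, vessel, or other tissue in a pool was not tested.

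Among the genes themselves, *tagln*, *myh11a*, and *mylka* differed in the same direction between replicates in 6 of 6 groups, as did *smtnl1* and *fbln5*. Over the 12 libraries, log2 CPM of *tagln* and *fbln5* had a Pearson r of 0.95, and the lowest value was 0.24 between *smtnl1* and *actn1*. These correlations describe libraries that share group means, depth, and tissue composition. TG0 replicate 2 and MT0 replicate 2 were also both left out, a choice made after their levels were seen. TG0 and MT0 then each held replicate 1 alone, so neither gave a spread of its own, and only effect sizes are given. Against WT0, the log2 fold change in MT0 was 2.54 for *elnb* and 0.55 for *myh11a*. Against TG0, it was 1.51 for *mylka* and 3.91 for *elnb*, where the TG0 library kept held 8 counts of *elnb*.

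**Figure D4:**
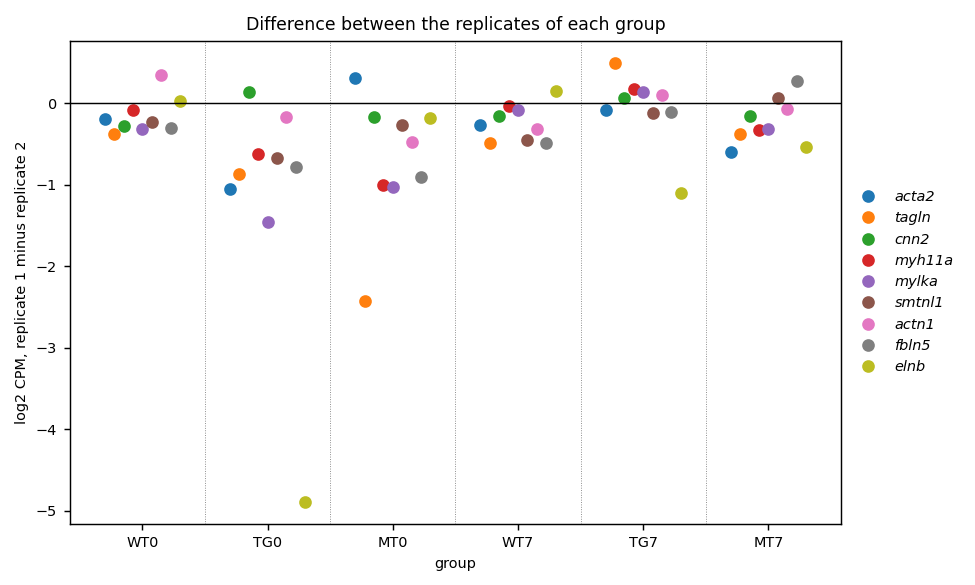
Log2 CPM of replicate 1 minus replicate 2 for each of the 9 genes in each of the 6 groups, where values below 0 mean a higher replicate 2. Most points of TG0 and MT0 lie below 0, down to -4.89 for *elnb* in TG0 and -2.42 for *tagln* in MT0.

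Among genes that averaged 3 or more in log2 CPM, those whose levels over the 12 libraries were most like *acta2* were *tmtc2* (r = 0.94), *rbm25* (0.92), *actn4* (0.92), LOC795591 (0.90), and *glrx* (0.90), out of 9073 candidates. Those most like *elnb* were LOC100333057 (0.92), LOC100005990 (0.90), *anxa1a* (0.89), *mylka* (0.89), and *tmem119b* (0.87), out of 9074. *mylka* was the only one of the followed genes in either list.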

How the data were processed

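RNA was taken from pools of 6 ventricular apices, prepared with a TruSeq kit that does not mark strand, and sequenced as single-end reads of 100 bases. The authors aligned reads with STAR (version 2.5.2) to GRCz10 (annotation release 91), used featureCounts (version 1.5.0-p3) to assign them to genes, and deposited the raw counts of 38049 genes. Whether counting used strand is not given in the sources used here, so overlapping antisense genes are uncertain. The files hold no lengths or coordinates, so levels were not compared between genes.

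Groups and replicate numbers came from the sample labels. Replicates came from different pools of hearts, and p-values measure the spread between pools, which hides that between fish. Over the 6 groups, 30.2% to 55.3% of genes differed between replicates in a chi-square test against counting noise (p below 0.05), so all libraries were kept as separate samples. That test scaled the libraries by total counts without TMM, so differences in scaling between replicates enter these shares.

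In R (version 4.3.3), counts were scaled by TMM and filtered by group (minimum count 10, minimum total 15) with edgeR (version 4.0.16), leaving 19014 genes, and a quasi-likelihood model with 1 mean per group was fitted to all 12 libraries. The 13 contrasts were 9 pairs of groups, the averaged injury effect, and 3 differences between injury responses. Errors are SEs of log2 fold changes, with 95% intervals from the model's degrees of freedom. The test was also run on simulated counts that gave every gene and group the same dispersion. The spread in these data was not equal between groups, so that run does not describe the error rates here. Alternatives were RLE size factors, no filter, DESeq2 (version 1.42.0), the replicate number as a block, a fit of only the libraries compared, and each library left out in turn. Leaving out TG0 replicate 2 and MT0 replicate 2 together was added after the data were seen.

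Named were all 10 genes of the rule, *nkx2.5*, the 5 genes most correlated with *acta2* and with *elnb*, and, from the lists of contractile, regulator, elastic fibre, mural, fibroblast, epicardial, cardiomyocyte, and red blood cell genes, those with the smallest p in the averaged injury effect or in MT0 against WT0. *cnn1*, *myl7*, *myocd*, *myh11b*, *tpm4a*, and *desma* were named outside that rule. The genes and lists were chosen with earlier results of these data known.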

Additional observations from a re-analysis of the deposited data

Results flagged for a closer look

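In the fit of all 12 libraries, a direct test in edgeR's quasi-likelihood model called a difference in injury response between genotypes for 3 genes. *actn1* responded by -1.31 log2 units in MT relative to WT (FDR = 0.0375) and by -1.90 relative to TG (FDR = 0.0149). *cnn2* responded by -1.05 relative to WT (FDR = 0.0260) and by -0.99 relative to TG (FDR = 0.0359). *smtnl1* responded by -1.51 in MT relative to WT (FDR = 0.0459) and by -2.46 in TG relative to WT (FDR = 0.00806). For *smtnl1* in MT relative to TG the value was 0.95 (FDR = 0.163), and the value in MT relative to WT was no longer called with RLE size factors (FDR = 0.0519). With only the libraries compared, 0 genes were called in MT against WT and 2 in MT against TG. With single libraries left out, the values in MT relative to WT were -1.55 to -1.07 for *actn1*, -1.21 to -0.93 for *cnn2*, and -1.72 to -1.28 for *smtnl1*. The call was lost in 10 of these 12 fits for *actn1*, 7 for *cnn2*, and 9 for *smtnl1*. In MT relative to TG the values were -2.14 to -1.65 for *actn1* and -1.08 to -0.91 for *cnn2*. Those calls were lost in 5 fits for *actn1* and 9 for *cnn2*. The higher MT0 levels of *actn1* and *cnn2* enter these values, and both MT7 libraries lay above every WT7 and TG7 library for these 2 genes.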

How the results depend on the processing

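Across 18 alternatives, none of the 42 calls changed direction, but many were lost. With only the libraries compared, 7 were lost and 30 kept. RLE size factors lost 1, and the replicate block lost 1. Over the fits that left out 1 library, calls were lost in 135 results. The counts of followed genes below do not show how many genes each fit called in all. In TG7 against TG0, the share of all genes called also fell without any 1 of the TG0 or TG7 libraries. In WT7 against WT0 it fell without WT0 replicate 1 or either WT7 library, and rose without WT0 replicate 2. Fewer calls in such fits are therefore not particular to the followed genes. When single libraries were left out, so that the remaining library of that group was assumed to vary like the other groups, the number of genes called was 4 to 9 in MT0 against WT0 (4 without WT0 replicate 1, 5 without MT0 replicate 2), 2 to 8 in MT0 against TG0 (2 without TG0 replicate 1, 3 without MT0 replicate 2), 1 to 2 in TG0 against WT0, 3 to 7 in WT7 against WT0 (3 without WT7 replicate 2), 1 to 6 in TG7 against TG0 (1 without either TG7 replicate, 2 without TG0 replicate 1), 0 to 1 in MT7 against MT0, 1 to 3 in MT7 against WT7, 0 to 1 in MT7 against TG7 and in TG7 against WT7, and 3 to 5 in the averaged effect. For the differences between responses it was 0 to 4 in MT against WT, 0 to 4 in MT against TG, and 0 to 1 in TG against WT.

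With only the libraries compared, the count was 1 in MT7 against MT0 (*elnb*), 4 in MT7 against WT7, 1 in TG0 against WT0, 3 in TG7 against WT7, and 0 in MT against WT. In MT7 against MT0 that fit called 1.88% of all genes in either direction. The averaged effect uses all libraries and had no such fit. The count in MT against WT was 5 with DESeq2 and 5 without the filter. Without TG0 replicate 2 and MT0 replicate 2, TG0 and MT0 each held replicate 1 alone, so no counts are given for that fit. Over all genes, the deviations of same-numbered replicates were little correlated (15 correlations between -0.12 and 0.12, 1 of them over 0.1). Such correlations cannot show whether a factor shared by same-numbered replicates acts on some of the genes. Among the 9 followed genes, replicate 2 was higher for 8 in TG0, MT0, and WT7, 7 in WT0 and MT7, and 4 in TG7. Whether the numbers pair the samples was not tested. With the replicate block the counts were 8 in MT0 against WT0, 7 in MT0 against TG0, and 2 in MT against WT. Over all genes, the share of calls that were higher was 41.4% with DESeq2 and 26.7% with edgeR in MT7 against TG7, 37.5% and 23.5% in MT against WT, and 36.3% and 24.6% in MT against TG, and in TG7 against WT7 it was 63.3% with only the libraries compared and 74.5% with all. The cause of these changes was not tested. With 2 libraries a group and elastin counts as low as 8, small differences of *elnb* could not be resolved.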
